A study of Mus musculus with 16 samples.

Results

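Immediate early response genes were followed at the site of a B16 melanoma graft in mice: Fos, Fosb, Jun, Junb, Egr1, Atf3, Ier2 and Dusp1. They were chosen as a named set of 8 genes, of which those with a named probe in the annotation used were measured. A named probe was found for 7 of the 8, 1 probe each, among the 16247 probes of the deposited table of log2 values, from which 9450 genes were tested. Ier2, which encodes a nuclear protein of the early response, had none there and is not analysed here. Probes outside that table were not searched, so the array itself may hold others. B16 is a pigmented melanoma cell line derived from C57BL/6 mice. Total RNA was hybridised to Illumina bead arrays in 3 groups of C57BL/6 mice aged 8 weeks: tumor microenvironment tissue taken on day 14 after tumor inoculation (5 arrays), the same kind of tissue taken on day 4 (4 arrays) and control tissue (7 arrays). The labels do not give a genotype beyond the strain, the tissue of the controls, or whether each numbered replicate was a separate mouse, so p-values measure the spread between these samples only, which may be technical.

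Immediate early genes are transcribed within minutes of a growth factor, cytokine or stress signal, without new protein synthesis, because the transcription factors that switch them on already sit in the cell and are activated by phosphorylation. Fos, Fosb, Jun, Junb and Atf3 encode leucine zipper proteins that pair with one another into AP-1 and related dimers, and Egr1 encodes a zinc finger transcription factor. Dusp1 encodes a phosphatase that switches off the MAP kinases that drive the response. In skin these genes are known for their reaction to wounding, ultraviolet light and growth factors.

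The promoters of 4 members are shown because 5 of the 6 searched, all but Jun, share a short upstream sequence. The selection by name did not use it. Of the 7 measured members, 6 had an entry in the RefSeq promoter table of build GRCm38.p6, and the 250 bases before each start site were searched. The cyclic AMP response element (CRE), the binding sequence of the CREB and ATF factors, is TGACGTCA, and its leading TGACG is called the CRE core here. The core, on either strand, was present upstream of 5 of the 6 members (Fos, Fosb, Junb, Atf3 and Dusp1), against 17.8% of 32851 promoters. Those promoters were not matched to the members for base composition, and the other motifs searched are given below. The last 150 bases before each start site are given 5′ to 3′ on the gene's own strand, with capitals marking the core, or CGTCA where it reads on the other strand, the whole CRE in Dusp1, and the TATA box TATAAA in Fos.
Fos (chr12:85473740-85473889, plus strand): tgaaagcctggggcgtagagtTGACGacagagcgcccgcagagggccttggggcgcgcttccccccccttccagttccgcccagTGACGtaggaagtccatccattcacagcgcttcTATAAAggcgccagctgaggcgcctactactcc
Fosb (chr7:19310046-19310195, minus strand): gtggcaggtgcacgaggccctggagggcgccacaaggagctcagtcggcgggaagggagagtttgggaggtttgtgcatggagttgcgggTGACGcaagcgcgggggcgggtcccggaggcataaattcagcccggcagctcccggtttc
Atf3 (chr1:191183334-191183483, minus strand): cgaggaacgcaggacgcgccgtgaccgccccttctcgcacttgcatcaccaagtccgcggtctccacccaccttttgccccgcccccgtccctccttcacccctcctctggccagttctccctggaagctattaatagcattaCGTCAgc
Dusp1 (chr17:26508473-26508622, minus strand): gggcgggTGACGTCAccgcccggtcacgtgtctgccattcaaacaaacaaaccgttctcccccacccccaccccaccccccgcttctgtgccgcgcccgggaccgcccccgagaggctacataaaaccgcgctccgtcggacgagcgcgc

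The Fos promoter held 2 CRE cores, the nearer one beginning 66 bases before the start site, and a TATA box beginning 33 bases before it. TATAAA on the gene strand occurred in 1 of the 6 members and in 7.59% of all promoters. The Dusp1 promoter held the whole CRE, which begins 143 bases before the start site and contains a core on each strand, and another core further upstream. The whole CRE occurred in 1 of the 6 members and in 1.55% of all promoters. CCAAT, on either strand, occurred upstream of Jun and Junb and in 33.8% of all promoters. The AP-1 site TGANTCA (6.75% of all promoters) and the CArG box bound by serum response factor (1.47%) matched in 0 of the 6 members on either strand. Bases beyond the 250 were not searched and Egr1 had no promoter entry, so a 0 does not show that these genes lack the site. A match describes the letters in the window and not a factor bound to it.

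The make-up of the arrays bears on every result. Of 38 markers of host cell types (keratinocyte, skeletal muscle, fibroblast, endothelial, macrophage and adipocyte), 11 were detected on day 14 array 2, 5 on day 14 array 5 and 6 on day 4 array 4, against 37 or 38 on each of the other 13 arrays. Those 3 arrays are called the arrays with few host markers, and the members' results are given with and without them. Among the other 13, the mean of 7 fibroblast markers was 9.85 to 10.41 on the log2 scale on 3 arrays (day 14 array 3, day 4 array 1 and control array 6) and 11.74 to 12.89 on the remaining 10. The mean of 8 melanocyte markers was 12.28 to 12.46 on the arrays with few host markers, 8.73 to 12.36 on the other day 14 arrays, 9.18 to 12.66 on the other day 4 arrays and 5.60 to 12.50 on the control arrays, so the control arrays also carried melanocyte transcripts, at a level that differed widely between them. In bulk tissue, fewer cells of a type and less RNA per cell cannot be told apart. All levels below are normalized log2 signals of 1 probe, which compare arrays for a gene and not 1 gene with another.

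None of the 7 genes passed the test between groups, and the spread between arrays of the same group was widest for Egr1 and narrowest for Jun. The arrays with few host markers had lower Egr1, Fosb and Junb and higher Atf3 than the other 13 arrays, with the nearest Junb and Atf3 values equal to 2 decimals, while Jun overlapped. Among the other 13 arrays, Fos, Egr1 and Dusp1 were lowest on the 3 arrays with lower fibroblast and several other host markers. The plot of values by array shows every measurement.

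**Figure D1:**
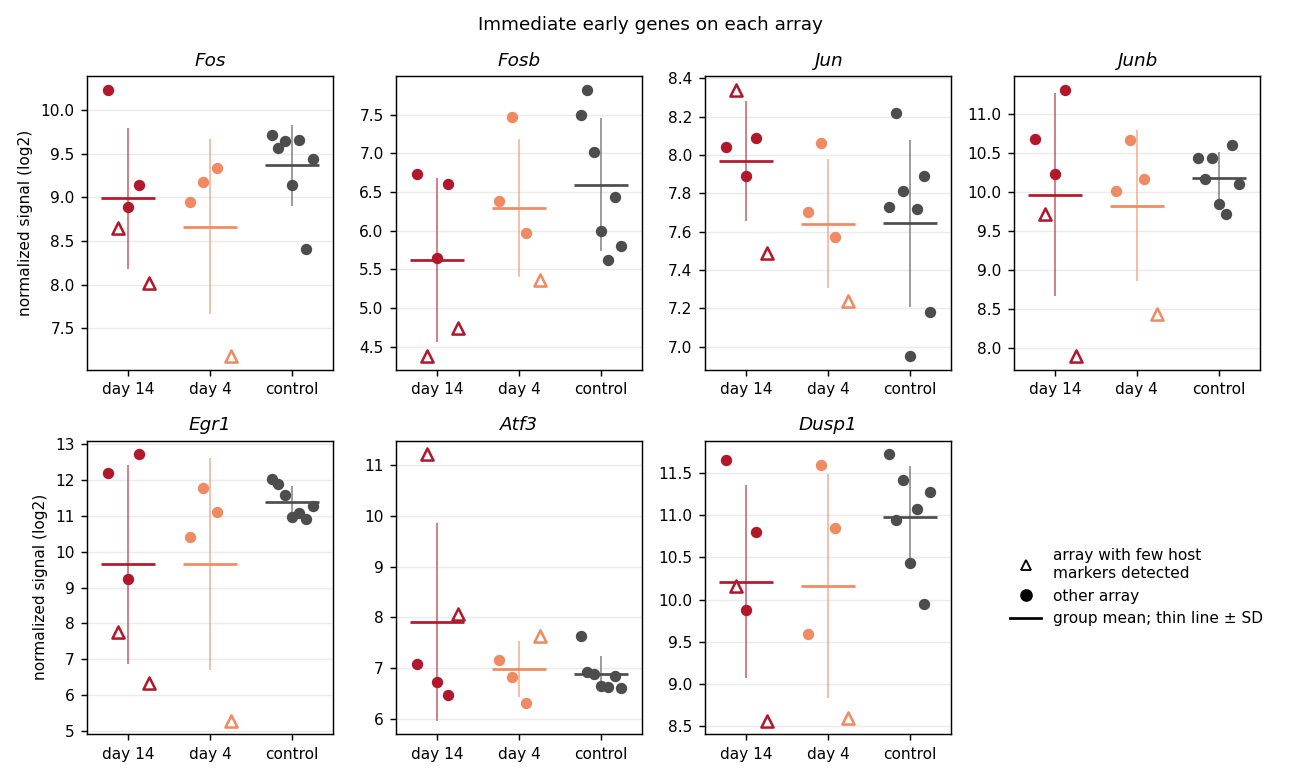
Normalized log2 signal (vertical axis) of the 7 measured genes on each array, by group, with the group mean as a horizontal line and the SD as a thin vertical line; triangles are the 3 arrays with few host markers and dots the other 13. The triangles lie below all dots for Egr1, at 5.28 to 7.77 against 9.23 to 12.73, and at or above all dots for Atf3, at 7.64 to 11.21 against 6.31 to 7.64.

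Fos encodes the founding Fos protein of AP-1, which binds DNA as the partner of a Jun protein. Its gene lies on chromosome 12 from 85473890 to 85477274 (RefSeq, GRCm38.p6). Fos had log2 signals of 10.23, 8.65, 8.89, 9.14 and 8.02 on day 14 arrays 1 to 5 and of 8.95, 9.18, 9.34 and 7.18 on day 4 arrays 1 to 4. The 7 control arrays had a lowest value of 8.41, a median of 9.56 and a highest of 9.71. The groups overlapped, with the highest Fos of all on day 14 array 1 and the lowest on day 4 array 4. The limma difference was -0.38 on the log2 scale at day 14 (SE 0.409, adjusted p = 0.531) and -0.71 at day 4 (SE 0.438, adjusted p = 0.75), both relative to control. On the 13 other arrays the differences were 0.05 (SE 0.325) at day 14 and -0.21 (SE 0.325) at day 4.

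Fosb encodes a Fos family protein whose shorter splice form is known from chronically stimulated neurons. The gene lies on chromosome 7 from 19302696 to 19310118. Fosb had log2 signals of 6.73, 4.38, 5.65, 6.61 and 4.74 on day 14 arrays 1 to 5 and of 6.39, 7.47, 5.97 and 5.36 on day 4 arrays 1 to 4. Control arrays ranged from 5.62 through a median of 6.43 to 7.82. The probe was detected on 13 of the 16 arrays, and the 3 arrays on which it was not detected were those with few host markers, where its order between arrays carries little information. The difference of -0.97 (SE 0.516) for day 14 against control had an adjusted p of 0.278, the lowest adjusted p of any member in that comparison, and was -0.26 (SE 0.501) without the arrays with few host markers. At day 4 it was -0.30 (SE 0.552) against control, and 0.01 (SE 0.501) on the 13 other arrays.

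Jun encodes the main DNA-binding partner of the Fos proteins and a target of the stress kinase JNK. The gene lies on chromosome 4 from 95049036 to 95052222. Jun had log2 signals of 8.04, 8.34, 7.89, 8.09 and 7.49 on day 14 arrays 1 to 5 and of 7.70, 8.06, 7.57 and 7.24 on day 4 arrays 1 to 4. Control arrays ranged from 6.95 through a median of 7.73 to 8.22. Jun was the steadiest member, with a within-group SD of 0.379 over all 16 arrays, and the groups overlapped throughout. Of all genes tested, 23.3% had a smaller within-group SD. On the 13 other arrays the within-group SD of Jun was 0.357, close to 0.363 for Atf3 and 0.382 for Junb. There 33.9% of genes had a smaller one than Jun. The difference was 0.33 (SE 0.233, adjusted p = 0.368) for day 14 against control and 0.37 (SE 0.253, adjusted p = 0.967) without the arrays with few host markers. At day 4 it was 0.00 (SE 0.249) against control over all arrays and 0.14 (SE 0.253) on the 13 other arrays.

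Junb encodes a Jun family protein that in many settings restrains transcription by Jun. The gene lies on chromosome 8 from 84976909 to 84978748. Junb had log2 signals of 10.68, 9.72, 10.23, 11.31 and 7.89 on day 14 arrays 1 to 5 and of 10.01, 10.67, 10.17 and 8.43 on day 4 arrays 1 to 4. Control arrays ranged from 9.72 through a median of 10.16 to 10.60. Day 14 arrays 4 and 1 had the highest Junb signals and day 14 array 5 the lowest, so the day 14 group spanned both ends. The difference for day 14 against control was -0.22 (SE 0.49, adjusted p = 0.772) over all arrays and 0.56 (SE 0.266, adjusted p = 0.967) without the arrays with few host markers. For day 4 it was -0.37 (SE 0.524, adjusted p = 0.778) over all arrays and 0.10 (SE 0.266) on the 13 other arrays. The sign of both Junb differences therefore turned on the arrays with few host markers, with neither value past the threshold.

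Atf3 encodes a leucine zipper protein of the ATF and CREB family that is induced by many kinds of cell stress. The gene lies on chromosome 1 from 191170296 to 191183333. Atf3 had log2 signals of 7.08, 11.21, 6.72, 6.48 and 8.07 on day 14 arrays 1 to 5 and of 7.16, 6.83, 6.31 and 7.64 on day 4 arrays 1 to 4. Control arrays ranged from 6.61 through a median of 6.85 to 7.64. Day 14 array 2 stood far above all others, with a scanner signal of 1645 against 172.2 to 299 elsewhere, and the next highest normalized signal was on day 14 array 5. The difference for day 14 against control was 1.03 (SE 0.622, adjusted p = 0.308). It was 0.20 without day 14 array 2 alone and -0.12 (SE 0.256) without all 3 arrays with few host markers. For day 4 against control it was 0.10 (SE 0.666) over all arrays and -0.12 (SE 0.256) on the 13 other arrays.

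Egr1 encodes a transcription factor that many growth factors induce through serum response factor. The gene lies on chromosome 18 from 34861207 to 34864956. Egr1 had log2 signals of 12.20, 7.77, 9.23, 12.73 and 6.32 on day 14 arrays 1 to 5 and of 10.42, 11.77, 11.12 and 5.28 on day 4 arrays 1 to 4. Control arrays ranged from 10.91 through a median of 11.28 to 12.03. It had the widest spread of the members, and the day 14 group held both the highest value, on array 4, and values far below every control, on arrays 2, 3 and 5. On day 4 array 4 the probe was not detected (scanner signal 145.8). The within-group SD of 2.12 over all arrays was larger than that of 96.8% of genes. Over the 13 other arrays it was 0.962, larger than that of 89.8% of genes.

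The difference in Egr1 was -1.74 at day 14 (SE 1.15, adjusted p = 0.34) and -1.75 at day 4 (SE 1.23, adjusted p = 0.75) relative to control, the lowest of any member at both times. With the arrays with few host markers left out they were -0.01 (SE 0.6) and -0.29 (SE 0.6). The mean at day 14 was then 11.39 ± 1.89 (SD, n = 3), against 11.39 ± 0.45 (SD, n = 7) in controls, so the means were nearly equal and the day 14 arrays lay on both sides of the control range.

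Dusp1 encodes a phosphatase that removes phosphates from MAP kinases and so ends the signal that induces the other members. The gene lies on chromosome 17 from 26505591 to 26508472. Dusp1 had log2 signals of 11.65, 10.16, 9.88, 10.80 and 8.57 on day 14 arrays 1 to 5 and of 9.59, 11.59, 10.85 and 8.60 on day 4 arrays 1 to 4. Control arrays ranged from 9.95 through a median of 11.07 to 11.72. The lowest values were on day 14 array 5 and day 4 array 4, and apart from these and day 14 array 3 and day 4 array 1 all tumor site arrays lay within the control range. The difference was -0.76 at day 14 (SE 0.544, adjusted p = 0.371) and -0.82 at day 4 (SE 0.583, adjusted p = 0.75) relative to control. On the 13 other arrays it was -0.20 (SE 0.482) at day 14 and -0.30 (SE 0.482) at day 4.

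**Figure D2:**
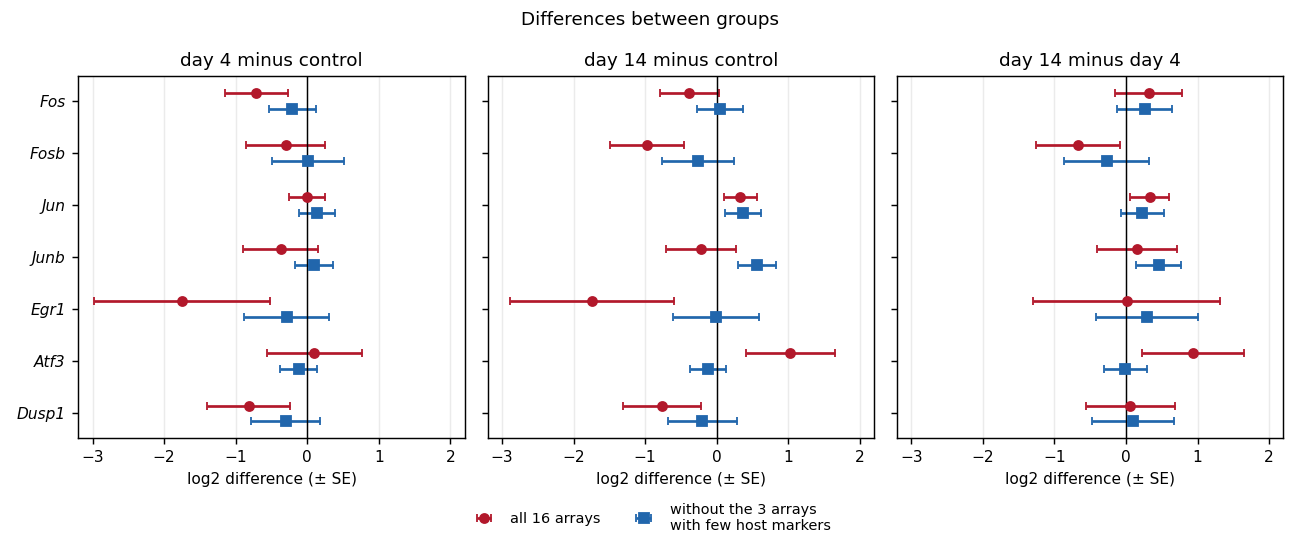
Limma log2 differences of the 7 genes (horizontal axis, bars are the standard error) for day 4 against control, day 14 against control and day 14 against day 4, over all 16 arrays (circles) and without the 3 arrays with few host markers (squares). The differences of Egr1 against control lie at -1.75 and -1.74 over all arrays and at -0.29 and -0.01 without those 3.

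Across the set, limma called 0 of the 7 members in the comparisons of day 14 with control, day 4 with control and day 14 with day 4, where a call is an adjusted p under 0.05 and at least a 2-fold difference. It called 0% of the 9450 genes in each comparison, so the count for the members equals the background. An unadjusted p under 0.05 was reached by 0 of the 7 members in each comparison, against 18% of all genes at day 14 relative to control, 0.593% at day 4 relative to control and 0.603% at day 14 relative to day 4. Groups without overlap were found for 0 of the 7, against 0.18%, 0.0741% and 0.169% of genes in the same order of comparisons. On the 13 arrays left without those with few host markers the unadjusted count was also 0 in each comparison, against 2.16%, 0.138% and 1.06% of genes, and groups without overlap numbered 0 of 7, against 0.497%, 0.148% and 2.5% of genes.

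The median difference of the 7 members was -0.38 at day 14 relative to control, beside 0.04 over all genes, and -0.37 at day 4 relative to control, beside 0.05. Of the 7, 5 were below 0 at each time, against 47.5% of genes at day 14 and 45.3% at day 4, and both comparisons use the same control arrays. The medians were -0.01 and -0.12 without the arrays with few host markers. Leaving out 1 array gave medians of -0.694 (without day 14 array 1) to -0.141 (without day 14 array 5) at day 14, and of -0.691 (without day 4 array 2) to -0.118 (without day 4 array 4) at day 4. For day 14 against day 4 the median was 0.15 (-0.03 over all genes), with 1 of 7 members below 0, against 54.5% of genes. The members' values in that comparison ran from -0.67 for Fosb (SE 0.591) to 0.93 for Atf3 (SE 0.713), with an adjusted p of 1 for each. Leaving out 1 array turned the sign of that median, which ran from -0.316 without day 4 array 4 to 0.565 without day 14 array 5. On the 13 other arrays the median was 0.23, with 2 of 7 members below 0, and the values ran from -0.27 for Fosb (SE 0.593) to 0.46 for Junb (SE 0.315), with -0.01 for Atf3 (SE 0.303).

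The arrays with few host markers divided the members by direction. On day 14 arrays 2 and 5 and day 4 array 4, Egr1 was 7.77, 6.32 and 5.28, against 9.23 to 12.73 on the other 13 arrays. Junb was 9.72, 7.89 and 8.43, against 9.72 to 11.31. Atf3 went the other way, at 11.21, 8.07 and 7.64 against 6.31 to 7.64.
Fos and Dusp1 each had 2 of the 3 arrays below the range of the other 13, and Jun had 0 below and 1 above. In all, 3 members (Fosb, Junb and Egr1) had all 3 arrays below the range and 1 member (Atf3) had all 3 above, where 20.1% and 18.4% of all genes did so. These arrays were set apart by their host markers and carry no label of their own, so the values are a description with no test. Among marker lists not used to set them apart, 0 of 4 T cell markers and 8 of 8 melanocyte markers were detected on each of the 3. The adipocyte, macrophage and keratinocyte lists were part of that choice, so their low values there follow from it. Of these, 0 of 4 adipocyte and 1 of 7 macrophage markers were detected on each of the 3. On the 3 arrays the macrophage mean was 4.68 to 4.98 and the keratinocyte mean 4.53 to 5.57. On the other arrays the macrophage mean was 10.27 to 10.93 at day 14, 10.09 to 10.99 at day 4 and 10.11 to 11.33 in controls. The part of these markers in the members' values was not tested.

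Among the other 13 arrays, Fos, Egr1 and Dusp1 were lower on the 3 arrays where fibroblast markers, and those of several other host cell types, were lower. Dusp1 was 9.59, 9.88 and 9.95 on the 3 arrays with lower fibroblast markers, against 10.43 to 11.72 (median 11.17) on the 10 others. Fos was 8.41, 8.89 and 8.95, against 9.14 to 10.23 (median 9.50). Egr1 was 9.23, 10.42 and 10.91, against 10.96 to 12.73 (median 11.68). These 3 arrays are 1 of each group, and the remaining members, Fosb, Jun, Junb and Atf3, had 0 of the 3 arrays outside the range of the 10. Over all genes, 13.3% had all 3 of these arrays below the 10 others and 17.3% had all 3 above. The split was not particular to fibroblasts. On the same 3 arrays the keratinocyte mean was 11.22 to 12.17, against 12.55 to 13.71 on the 10 others, and the skeletal muscle mean was 9.08 to 10.04, below all of the 10 others. The macrophage mean was 10.09 to 10.27, against 10.60 to 11.33, and the adipocyte mean 8.31 to 8.98, against 9.79 to 11.04. Not every host cell type was lower. The endothelial mean overlapped, at 8.53 to 8.66 against 8.54 to 9.42, as did the neutrophil mean, and the T cell mean was 7.66 to 8.82 against 6.82 to 8.08. The melanocyte mean went the other way, at 12.36 to 12.66 against 5.60 to 11.78, and the part of any of these in the members' values was not tested.

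Because the arrays formed these clusters, relations with the cell type markers were read within the 10 arrays. Of 56 relations between the 7 members and 8 marker lists, 0 passed Benjamini-Hochberg adjustment there in a permutation test, and 2 had an unadjusted p under 0.05. Over all 13 arrays, across both clusters and with more power than 10 arrays give, 14 of the 56 passed by Pearson r (6 each for Fos and Dusp1 and 2 for Egr1). By Spearman's rho 9 passed. Of the 14, Fos with the T cell mean and Dusp1 with the melanocyte mean had r = -0.67 each, and the rest were above 0. Leaving out a single array of the lower cluster took the Pearson count to 5 (without control array 6), 7 (without day 14 array 3) or 8 (without day 4 array 1). Leaving out any single array of the higher cluster gave 11 to 17. The plot against fibroblast markers shows these clusters.

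**Figure D3:**
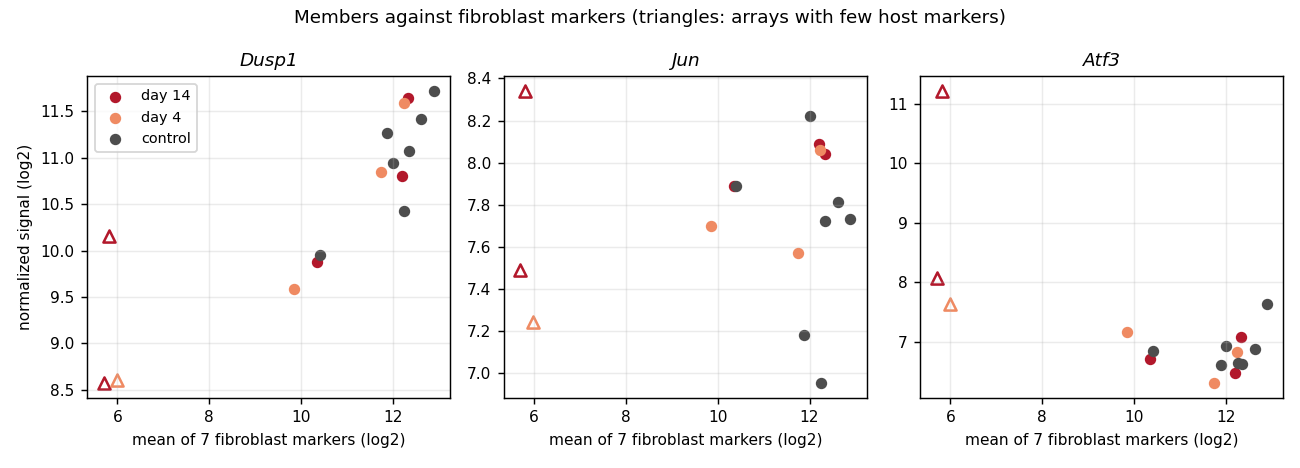
Normalized log2 signal of Dusp1, Jun and Atf3 (vertical axes) against the mean log2 signal of 7 fibroblast markers (horizontal axis) on each array, coloured by group, with triangles for the 3 arrays with few host markers. Dusp1 lies at 9.59 to 9.95 on the 3 dots with fibroblast means of 9.85 to 10.41 and at 10.43 to 11.72 on the 10 dots above them, while the 3 dots of Jun, at 7.70 to 7.89, lie inside the range of the 10, at 6.95 to 8.22.

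The members varied together to different degrees. Over the 13 arrays, 20 of the 21 pairs of members had a Pearson r above 0, with a median of 0.31 and a range of -0.04 to 0.79. The share over pairs of all genes is not given, so this count is not read as particular to the members. After Benjamini-Hochberg adjustment over the 21 pairs, 2 passed a two-sided permutation test with 100000 resamples. Fos and Dusp1 had r = 0.79 (adjusted p = 0.0181) and Spearman's rho = 0.86 (adjusted p = 0.00714), with r = 0.91 over the 7 control arrays and 0.72 over the 6 tumor site arrays. Without the 2 arrays farthest from the median of Fos, r was 0.78. Egr1 and Dusp1 had r = 0.71 (adjusted p = 0.049) and rho = 0.73 (adjusted p = 0.0691), and r = 0.87 without the 2 arrays farthest from the median of Egr1.

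Both relations were smaller within the 10 arrays with higher fibroblast markers. There r was 0.61 for Fos and Dusp1 (permutation p = 0.0579, adjusted p = 0.187) and 0.34 for Egr1 and Dusp1 (permutation p = 0.329, adjusted p = 0.493), and neither passed within that cluster. The pair that passed there was Junb and Egr1, with r = 0.90 (permutation p = 0.0005, adjusted p = 0.0105). Over 13 arrays Junb and Egr1 had r = 0.58 and did not pass the permutation test (adjusted p = 0.123). Their r was 0.33 over the 7 control arrays and 0.81 over the 6 tumor site arrays. Leaving out 1 array at a time from the 13 kept Fos and Dusp1 past the threshold in 11 of 13 fits and Egr1 and Dusp1 in 1 of 13. Junb and Egr1 passed in 0 of 13, with r from 0.39 (without day 14 array 4) to 0.75.

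**Figure D4:**
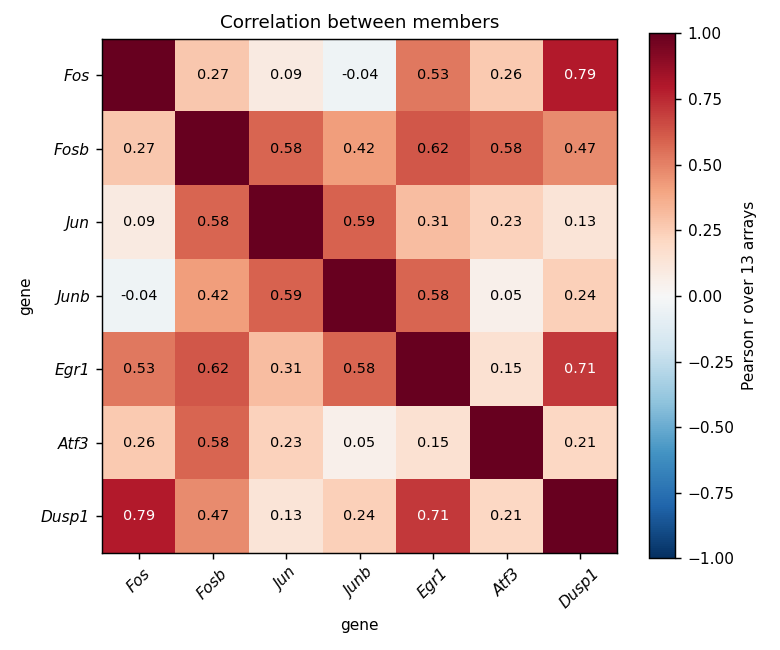
Pearson r between the log2 signals of each pair of the 7 genes over the 13 arrays other than those with few host markers, with red above 0 and blue below 0. The largest values are 0.79 for Fos with Dusp1 and 0.71 for Egr1 with Dusp1, and the lowest is -0.04 for Fos with Junb.

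The genes outside the set whose pattern over the 13 arrays was most like each member's were listed, 3 per member, as a description of 13 points that share arrays and clusters. For Egr1 they were Zscan26 (r = 0.956), Rnd3 (r = 0.933) and Nhsl1 (r = 0.93). For Dusp1 they were Ociad2 (r = 0.948), Grem1 (r = 0.943), which encodes a secreted BMP antagonist, and Fst (r = 0.94), which encodes the activin antagonist follistatin. Fos was nearest to Acvr1c (r = 0.882), Myocd (r = 0.88) and Adgrl4 (r = 0.85).
Junb was nearest to St14 (r = 0.905), which encodes the epithelial protease matriptase, Cldn4 (r = 0.894), a tight junction claudin, and Fchsd1 (r = 0.877). Fosb was nearest to Il1b (r = 0.877), which encodes the cytokine interleukin 1 beta, Gfod2 (r = 0.857) and Nadk (r = 0.848). Jun was nearest to Phf2 (r = 0.883), Amotl2 (r = 0.863) and Palm (r = 0.837), and Atf3 to Strip2 (r = 0.8), Col28a1 (r = 0.783) and Ippk (r = 0.778).

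Of 86 further genes in 6 lists of the same response (AP-1 partners, EGR and nuclear receptor genes, other early genes, MAP kinase phosphatases and feedback, upstream factors and kinases, and heat shock genes), 62 were tested. Limma called 0 of the 62 in any of the 3 comparisons, beside 0% of all genes. An unadjusted p under 0.05 was reached for day 14 against control by 5 higher and 2 lower genes, against 6.19% and 11.8% of all genes, and by 0 genes in the other 2 comparisons. With the arrays with few host markers left out, 0 higher and 1 lower gene reached it for day 14 against control, where 0.963% and 1.2% of all genes did, and likewise for day 14 against day 4, where 0.339% and 0.72% did. On the arrays with few host markers, 14 of the 62 (22.6%) lay below the range of the other 13 arrays and 7 (11.3%) above, beside the 20.1% and 18.4% of all genes.

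The 2 genes of each list with the greatest absolute difference of day 14 against control are given with their levels on those arrays. Among 6 AP-1 partners, Fosl2, a Fos family gene, had 7.18 to 8.15 on the arrays with few host markers, against 8.87 to 11.74 on the others, with a difference of -1.38 (SE 0.734, adjusted p = 0.278) for day 14 against control, and of -0.28 (SE 0.508) without those arrays. Jdp2, which encodes a repressing Jun dimer partner, had 10.43 to 10.70 against 8.08 to 9.74, with a difference of 0.99 (SE 0.487, adjusted p = 0.269), and of 0.25 (SE 0.326) without them. Egr2, a relative of Egr1, had 4.39 to 4.70 against 8.14 to 11.06, and its difference of -2.44 (SE 1.22, adjusted p = 0.27) became -0.29 without those arrays. Nab2, which encodes a corepressor of Egr proteins, overlapped, at 6.04 to 6.64 against 5.39 to 7.24, with a difference of 0.28 (SE 0.276).

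Among 22 other early genes, the Krüppel-like factors Klf4 and Klf2 had 4.78 to 5.20 and 4.58 to 5.21 on the arrays with few host markers, against 9.54 to 11.79 and 9.07 to 10.42 on the others. Their differences for day 14 against control were -2.49 (SE 1.22) and -2.11 (SE 1.02), and -0.33 and -0.31 without those arrays. Among 9 phosphatase and feedback genes, Dusp2, a nuclear MAP kinase phosphatase of immune cells, had a difference of 1.55 (SE 0.701, adjusted p = 0.269) with all arrays and of 1.54 (SE 0.861, adjusted p = 0.967) without those with few host markers. Its relative Dusp5 had -1.05 (SE 0.867) and 0.46 (SE 0.46). On the arrays with few host markers Dusp2 had 9.28 to 9.98, against 6.38 to 10.48 on the others, and Dusp5 had 4.61 to 5.15, against 6.89 to 9.98.

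Among 14 upstream genes, Egfr, the epidermal growth factor receptor, had 4.44 to 5.23 on the arrays with few host markers, all below the range of the others, and Rps6ka3, a kinase that phosphorylates CREB, had 8.95 to 9.18 against 6.93 to 8.95. The day 14 differences were -2.56 (SE 1.22, adjusted p = 0.269) for Egfr and 0.65 (SE 0.411, adjusted p = 0.323) for Rps6ka3, and -0.38 (SE 0.448) and 0.17 (SE 0.409) without the arrays with few host markers. Among 7 heat shock genes, Hspa1a, the inducible HSP70 chaperone, had 4.37 to 4.51 against 8.26 to 11.32, and Hspb1, a small heat shock protein, 7.54 to 8.61 against 9.29 to 12.40. Their day 14 differences were -2.45 (SE 1.17, adjusted p = 0.269) and -1.65 (SE 0.83, adjusted p = 0.27), and -0.42 (SE 0.588) and -0.46 (SE 0.63) without those arrays, where both adjusted p were 0.967.

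The 7 list genes above the range of the other 13 arrays, as Atf3 was, were Jdp2, Atf4, Myc, Gadd45a, Crtc2, Map2k1 and Hspe1, a smaller share of the lists than of all genes, and those given next were chosen after their values were seen. Atf4, which encodes the central factor of the integrated stress response, had 12.96 and 12.79 on day 14 arrays 2 and 5 and 12.45 on day 4 array 4, against 10.50 to 11.35 on the other 13. Gadd45a, a growth arrest and DNA damage gene, had 12.57, 9.60 and 10.65 on those arrays, against 8.46 to 9.58. Other stress genes were mixed. Ppp1r15a had 11.88, 9.18 and 9.92 on the same arrays, against 8.67 to 9.82, and Gadd45b and Gadd45g overlapped the other 13. Of the heat shock genes, Hspa1a, Dnajb1 and Hspb1 lay below the other 13 arrays and Hspe1 above. Hspa8 and Hsph1 overlapped them, as did Hsp90aa1, at 10.67, 10.79 and 10.02 against 8.18 to 10.32.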

How the data were processed

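Illumina bead arrays of 16 samples were grouped by their labels as day 14 (5), day 4 (4) and control (7). Per the file headers, the deposited scanner table holds a signal, which is an intensity on a linear scale, and a detection p-value for each probe and array. Most deposited p-values were offset by 2441 lines from their own signals and were moved back (0 reversals of p against signal afterwards). The deposited table of log2 values, with 16247 probes, was an alternative source of levels, and it also fixed which probes were used. The authors' software is not given in the sources used.

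Signals were background-corrected and quantile normalized by neqc (offset 16) in limma, version 3.58.1, under R 4.3.3. Of the 42831 probes with signals in the scanner table, only those also in the table of log2 values were used. The platform annotation gave 1 symbol to 14124 of these. Requiring a detection p under 0.05 on 4 or more arrays then kept 14121. All shares of genes are therefore shares of this reduced set. The probe of highest mean stood for each of 9450 genes. The 3 groups entered 1 limma fit (lmFit, eBayes), with two-sided tests and Benjamini-Hochberg adjustment over all genes. Correlations used permutation tests with 100000 resamples in Python 3.11.15 with numpy 2.4.6. The scripts were tested on simulated data. Detected probes numbered 15555 to 21669 per array, and the number of arrays limits the precision. The labels give no slide, so none was fitted.

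The members and the gene lists were chosen with earlier results of these data known. The text names all members, the 2 genes of each list with the largest absolute difference of day 14 against control, and the 3 genes most like each member. Atf4, Gadd45a and the other genes named with them, the split by fibroblast markers and the marker relations were chosen after values were seen. Alternatives were other normalizations, the value table, other filters, array weights, a replicate block and leaving out arrays.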

Additional observations from a re-analysis of the deposited data

Results flagged for a closer look

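Control array 1 had an Atf3 signal of 7.64 on the log2 scale, set apart from the other 6 control arrays, which lay between 6.61 and 6.93. Its gap to the nearest other array, as a share of the range of the group, was above the critical value of Dixon's test. Of 21 sets of a member and a group tested, 1 was flagged, where chance flags about 1 in 20. The same array had the lowest melanocyte marker mean of all arrays, at 5.60, and the highest fibroblast mean, at 12.89, and the part of these in the Atf3 value was not tested.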

How the results depend on the processing

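No member was called in any alternative (0 of 561 values), and the lowest adjusted p of a member was 0.13, for Fosb at day 14 against control without day 14 array 4. The count over all genes was also 0 in every alternative, of 6702 to 9453 genes tested, so the members' count equals the background. Of the 561 values, 507 kept their direction and 54 reversed, in 15 of the 21 pairs of member and comparison, and the cause of a reversal was not tested. For day 4 against control, Jun turned from 0.00 to -0.0057 with quantile normalization alone, -0.0092 in the value table, -0.0032 with an offset of 50 and -0.0996 with the replicate block, in which 0 members were called; array weights gave 0.0316 for Junb and -0.388 for Atf3. Leaving out 1 array gave ranges of -0.139 to 0.136 for Jun, -0.691 to 0.00965 for Fosb, -0.647 to 0.098 for Junb and -0.118 to 0.325 for Atf3. Without the arrays with few host markers the values were 0.00965 for Fosb, 0.098 for Junb and -0.118 for Atf3. Leaving out control array 1 as well gave 0.158 for Fosb and 0.139 for Junb. Leaving out day 4 array 1 as well gave 0.12 for Fosb, 0.233 for Junb, 0.0487 for Egr1, -0.315 for Atf3 and 0.245 for Dusp1. For day 14 against control, Junb was 0.173 with array weights and -0.553 to 0.3 leaving out 1 array. Without the arrays with few host markers Fos was 0.0531, Junb 0.556 and Atf3 -0.124, the same values without day 4 array 1. Without control array 1 as well Fos was 0.111, Junb 0.597 and Egr1 0.101. For day 14 against day 4, Egr1 was -0.108 with quantile normalization alone, -0.109 in the value table, -0.0761 with an offset of 50 and -0.443 with array weights, which gave -0.21 for Dusp1. Leaving out 1 array gave -0.17 to 0.565 for Fos, -0.316 to 0.665 for Junb, -1.45 to 0.838 for Egr1 and -0.464 to 0.533 for Dusp1. Without the arrays with few host markers Atf3 was -0.00547, also without control array 1, and leaving out day 4 array 1 as well gave -0.0538 for Egr1 and -0.441 for Dusp1. The number of correlated pairs of members was 2, against 1 with quantile normalization alone, 4 with values centred on the group mean, 10 over all 16 arrays, 1 without the 3 arrays with lower fibroblast markers and 0 to 2 leaving out 1 array. Same-numbered arrays deviated from their group means with correlations of -0.806 to 0.446. The lowest values, -0.806 and -0.752, each involved an array with few host markers. Those arrays also enter the group means, so the correlations cannot decide whether the numbers pair the samples. Fosb, not detected on 3 arrays, and Egr1, not detected on 1, have levels there that the background limits.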
